A study of Mus musculus with 17 samples.

Results

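The fibroblast growth factor (FGF) receptors, 3 FGF ligands and the receptor adaptor were followed at the RNA level in cultured mouse astrocytes. The set holds 9 genes, chosen by symbol from the 56691 genes of the count table: the receptors *Fgfr1*, *Fgfr2*, *Fgfr3* and *Fgfr4*, the receptor-like gene *Fgfrl1*, the adaptor *Frs2*, and the ligands *Fgf1*, *Fgf2* and *Fgf10*. All 9 have a row in the table. The cells were astrocytes of P2 C57BL/6 brain, taken without olfactory bulbs and cerebellum, purified by immunopanning (depletion on antibodies to CD45 and O4, then capture on an antibody to HepaCAM) and kept in serum-free medium with HBEGF, a growth factor that every group received. The 17 libraries fall into 5 groups. In the first experiment, 3 cultures received SAG, a small molecule that activates Smoothened and with it the Sonic hedgehog pathway, at 500 ng/ml from day 3 in vitro for 3 days, and 3 cultures received its solvent DMSO. In the second, 4 cultures received FGF2 and 3 cultures received FGF10, both at 50 ng/ml from day 2 for 7 days, and 4 cultures received PBS. No gene was deleted or overexpressed in any group. The labels number the replicates and do not say which cultures shared a preparation, so p-values measure the spread between these libraries.

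FGFs are secreted proteins that bind receptor tyrosine kinases together with heparan sulfate on the cell surface. The activated receptor phosphorylates the membrane-bound adaptor FRS2, which recruits GRB2 and SHP2 and leads to the RAS-ERK cascade, whose targets include the Sprouty and ETV genes. FGFRL1 binds FGF ligands but lacks the tyrosine kinase domain. In the brain, *Fgfr3* is a known astrocyte-enriched receptor gene, and FGF2 is widely used to culture neural cells.

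Ligand choice by FGFR1, FGFR2 and FGFR3 depends on the second part of the third immunoglobulin-like domain, which is encoded by either of a pair of alternative exons, IIIb or IIIc. FGF10 acts mainly through the IIIb form of FGFR2, whereas FGF2 acts on IIIc forms but not on these alone. The exons of *Fgfr3*, whose libraries did not overlap between groups in 2 of the comparisons below, are shown because such a pair decides which ligands a receptor can bind, a difference the gene counts cannot resolve. Each is written 5′ to 3′ on the transcript strand, and capitals mark the bases that differ from, or have no partner in, the other exon in a global alignment.
Fgfr3 exon IIIb, chr5:33731281-33731431, plus strand, GRCm38: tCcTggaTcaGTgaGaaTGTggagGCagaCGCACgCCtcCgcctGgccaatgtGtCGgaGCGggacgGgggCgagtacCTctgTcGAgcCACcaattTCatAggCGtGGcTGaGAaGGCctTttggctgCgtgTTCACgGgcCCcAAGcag
Fgfr3 exon IIIc, chr5:33732117-33732261, plus strand, GRCm38: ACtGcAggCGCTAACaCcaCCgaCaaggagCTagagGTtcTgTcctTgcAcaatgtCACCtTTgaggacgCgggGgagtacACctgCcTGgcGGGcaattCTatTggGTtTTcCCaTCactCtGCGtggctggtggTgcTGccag

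In *Fgfr3*, 88 bases were shared by both exons, 58.3% of the 151 bases of IIIb and 60.7% of the 145 bases of IIIc. Between *Fgfr1* and *Fgfr3*, IIIc matched at 77.9% of the shorter exon and IIIb at 60.3%. In annotated protein-coding transcripts, 2854 bases of *Fgfr3* mRNA follow the IIIb exon and 1393 to 2854 follow IIIc, and the last exon starts at the same base in both kinds. The libraries were read from the 3′ end of the transcript, so each receptor value below sums the b and c forms.

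The total count was 17481727 to 68342287 per library (median 37173676). Levels are given as CPM, read counts scaled to one fixed library total, after scaling by the trimmed mean of M-values (TMM) over all 17 libraries. Since a transcript is read at its 3′ end, CPM does not grow with transcript length, and it is a count per transcript end and not a measure of protein. Summed CPM of 10 astrocyte markers ran from 3400 to 5480 over the 17 libraries, so the labelled cell type was present in each. By group the sum was 4180 to 4500 in DMSO, 3630 to 4300 in SAG, 3710 to 5270 in PBS, 3400 to 5480 in FGF2 and 3650 to 5060 in FGF10 libraries. Of 8 microglia and macrophage markers, 5 (*Aif1*, *C1qa*, *C1qb*, *Csf1r*, *Ptprc*) had at most 3 counts in every library, as did the endothelial genes *Cdh5* and *Cldn5*, and the fibroblast gene *Lum*. The other members of these lists had reads, and the summed lists reached 4.36 CPM for microglia, 14.5 CPM for endothelial cells and 82.6 CPM for fibroblasts or mural cells. A sum of 9 neuron markers was 73.6 to 215 CPM in DMSO, 26.1 to 75.5 in SAG, 32.9 to 170 in PBS, 39.3 to 180 in FGF2 and 27.1 to 173 in FGF10 libraries. A sum of 9 oligodendrocyte lineage markers was 1970 to 2380 CPM in DMSO, 3650 to 3860 in SAG, 1820 to 3700 in PBS, 1950 to 4270 in FGF2 and 1810 to 3280 in FGF10 libraries. In bulk RNA, a change in the share of a cell type and a change in RNA per cell cannot be told apart.

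The members fell into a group of 5 with reads in all 17 libraries (*Fgfr1*, *Fgfr2*, *Fgfr3*, *Fgfrl1*, *Frs2*), and 4 with reads in only some libraries (*Fgf1* in 14, *Fgf2* in 9, *Fgf10* in 2, *Fgfr4* in 1). By mean CPM over the libraries, *Fgfr1* (178) stood above 96.7% of the 22606 genes with any count, *Fgfrl1* (88.8) above 92.1%, *Fgfr3* (79.8) above 91.1%, *Fgfr2* (51.3) above 85.7% and *Frs2* (13.7) above 64.0%. *Fgf1* (5.16) stood above 52.1% and *Fgf2* (2.37) above 44.5%. The plot of the 5 genes with reads in every library shows their values by group.

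**Figure D1:**
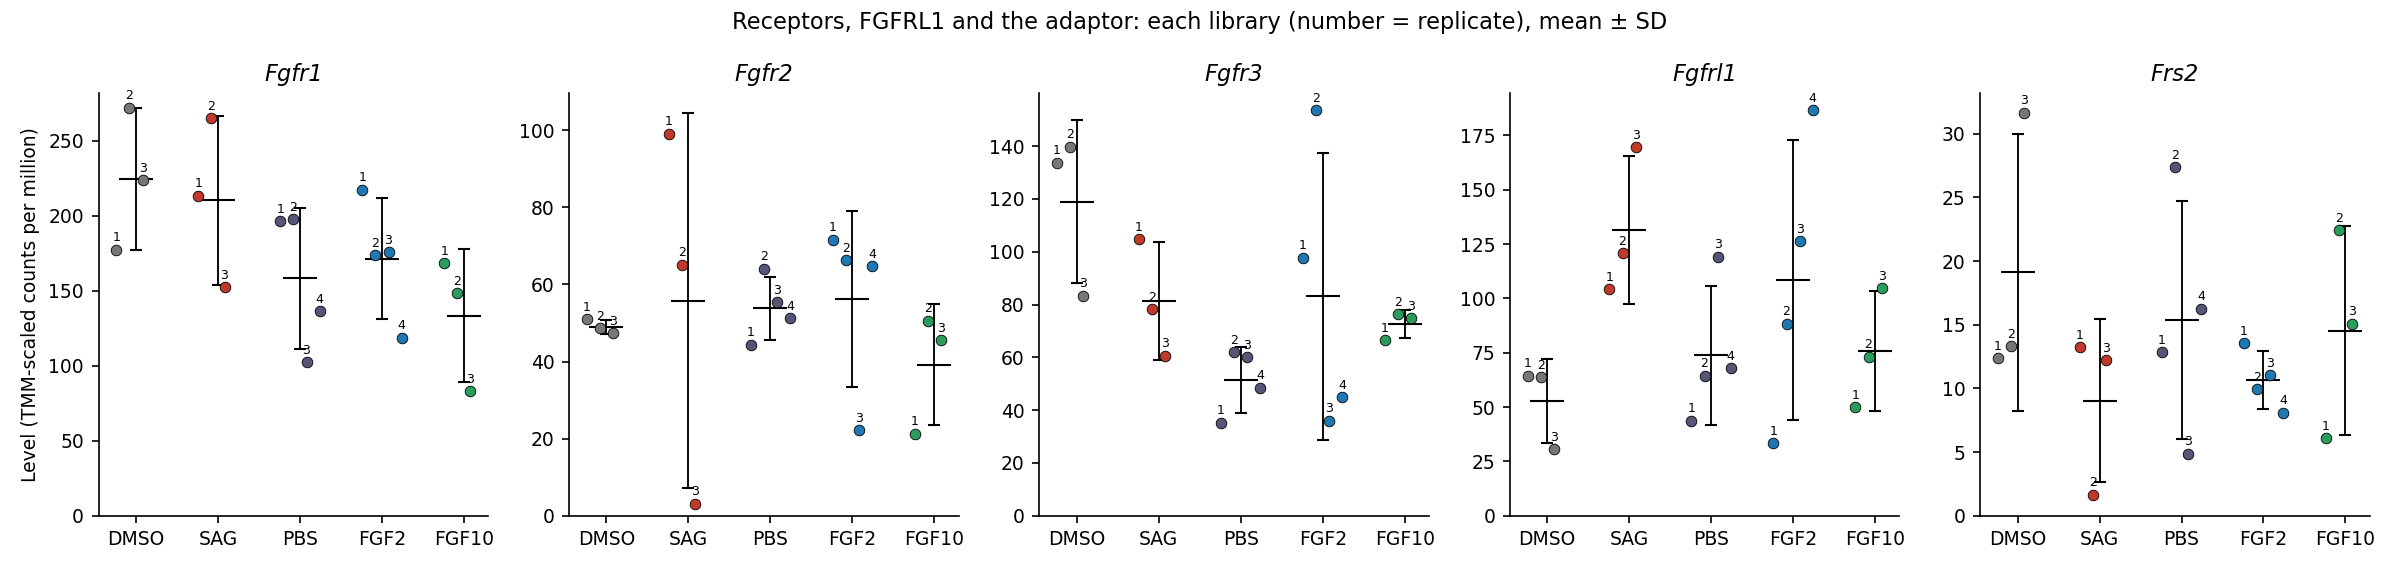
Levels of *Fgfr1*, *Fgfr2*, *Fgfr3*, *Fgfrl1* and *Frs2* in TMM-scaled CPM (vertical axes, starting at 0 and different between panels) in the 5 groups; points are libraries, small numbers their replicate numbers, and bars the mean ± SD. *Fgfrl1* was at 104 to 169 in SAG and at 30.5 to 64.4 in DMSO libraries, and *Fgfr3* was lower in all 4 PBS libraries (35.2 to 62.0) than in all 3 DMSO libraries (83.4 to 140).

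Among the ligands, *Fgf10* mRNA (Ensembl ENSMUSG00000021732, chromosome 13, 118669791 to 118792115, GRCm38) was close to absent. It had 60 counts (2.33 CPM) in FGF10 replicate 1 and 16 counts (0.511 CPM) in SAG replicate 3, and was at 0 in the other 15 libraries. The FGF10 protein added to the medium gives no reads, so the count does not report on the treatment. *Fgf10* did not pass the filter on low counts in any comparison and was not tested.

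*Fgf2* (ENSMUSG00000037225, chromosome 3, 37348346 to 37410108), which encodes a ligand released without a classical signal peptide, was sparse. DMSO replicates 1, 2 and 3 held 0, 3.94 and 0.0265 CPM, the last being 1 count, and SAG replicates 1, 2 and 3 held 4.68, 2.33 and 0. PBS replicates 1 to 4 were at 0, 1.99, 11.3 and 0 CPM, and FGF10 replicates 1 to 3 were at 1.24, 1.16 and 13.5. All 4 FGF2 libraries were at 0 counts. Thus the FGF2 libraries had no *Fgf2* read, while 2 of 4 PBS libraries had none either, so these groups overlap, and all 3 FGF10 libraries stood above all 4 FGF2 libraries.

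Set against a floor of 3 counts per library (0.0906 CPM on average), *Fgf2* was at least 58.7-fold lower in FGF2 than in FGF10 libraries, and at least 13.2-fold lower when FGF10 replicate 3 was left out. The floor allows for counting error only and not for the spread between libraries, which in PBS alone ran from 0 to 11.3 CPM. *Fgf2* also entered this comparison only through the FGF10 libraries, where it is high. The bound therefore describes these libraries, is no lower limit on a difference between the treatments, and no test is given. Zeros were common at this level: of 3479 genes with a mean of 1 to 5 CPM, 37.6% to 65.0% were at 0 in a given library, and 283 (8.13%) were at 0 in all 4 FGF2 libraries. *Fgf2* shares 640 exonic bases with *Nudt6* on the opposite strand, and the kit marks strand but the strand setting of the counting is not given in the sources used here. *Nudt6* had 10.4, 1.49, 3.98 and 11.9 CPM in FGF2 replicates 1 to 4, so reads were assigned to *Nudt6* and none to *Fgf2* in these libraries. FGF10 replicates 1 and 2 were at 0 for *Nudt6*, and replicate 3 was at 2.71.

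*Fgf1* (ENSMUSG00000036585, chromosome 18, 38838673 to 38929472), which encodes a ligand able to bind all FGF receptors, was at 0, 0 and 8.65 CPM in DMSO replicates 1 to 3 and at 6.00, 2.13 and 1.15 in SAG. PBS replicates 1 to 4 held 0, 0.114, 0.0285 and 11.4 CPM, and FGF2 replicates 1 to 4 held 6.99, 7.80, 18.4 and 2.38. FGF10 replicates 1 to 3 held 1.51, 0.784 and 20.4. PBS replicate 4 lies within the range of the FGF2 libraries and the other 3 PBS libraries lie below it. The log2 fold change of FGF2 against PBS was 1.61 with an SE of 2.04 (edgeR, adjusted p = 1), and that of FGF10 against PBS 1.38 with an SE of 2.45 (adjusted p = 1), so the error exceeded the difference in both.

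**Figure D2:**
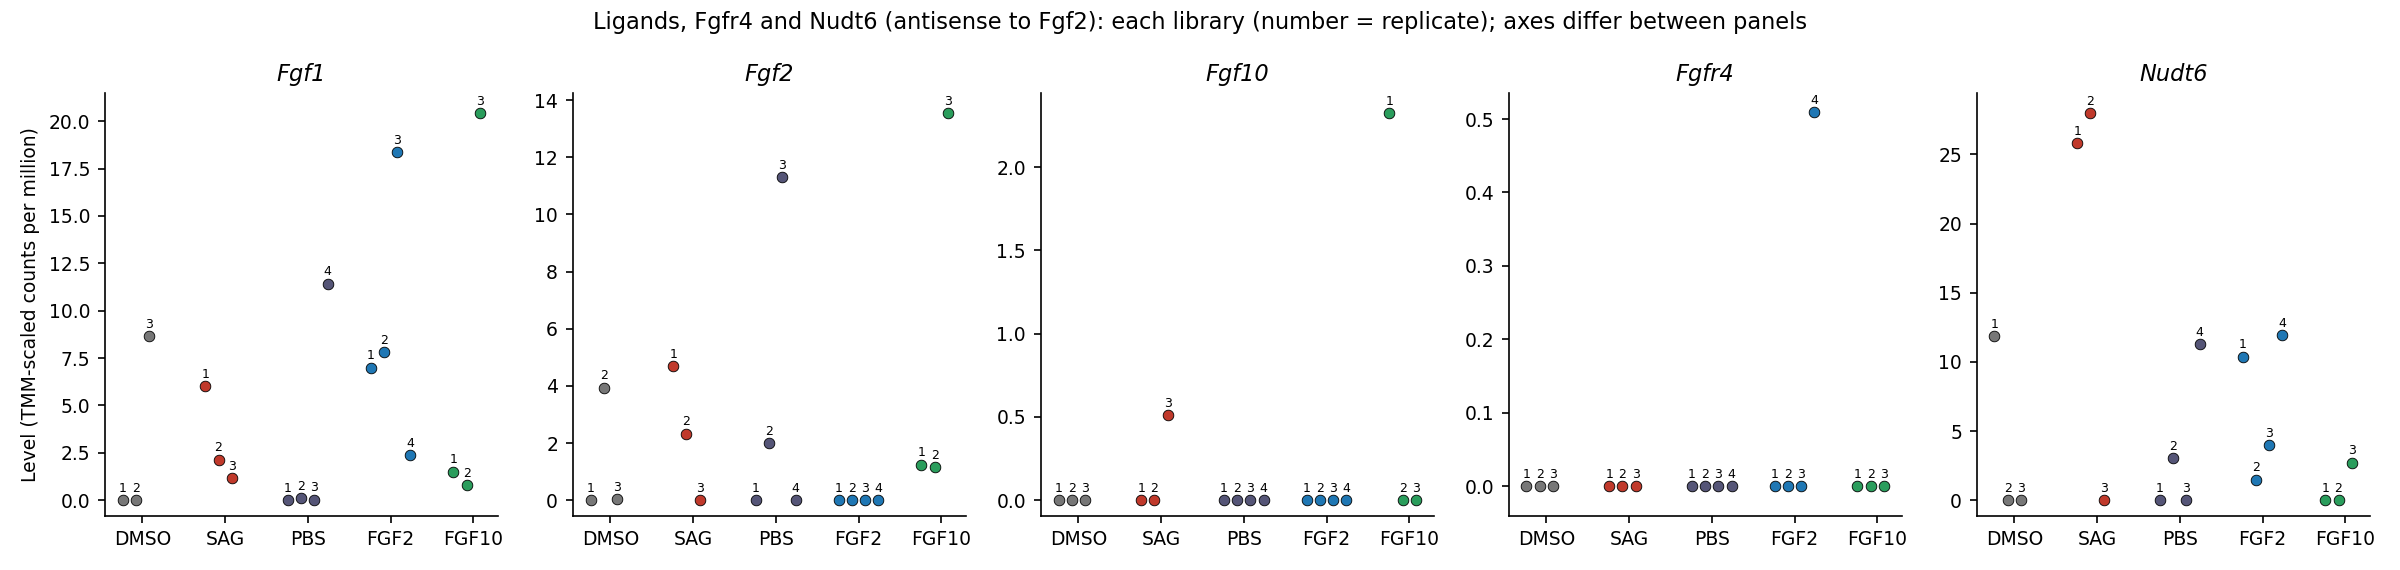
Levels of *Fgf1*, *Fgf2*, *Fgf10*, *Fgfr4* and *Nudt6*, which overlaps *Fgf2* on the opposite strand, in TMM-scaled CPM (vertical axes differ between panels); points are libraries and small numbers their replicate numbers. *Fgf2* is at 0 in all 4 FGF2 libraries, *Fgf10* has reads in 2 of 17 libraries and *Fgfr4* in 1 of 17.

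Of 19 other FGF ligand genes, 8 had no count in any library and 4 passed the filter in each comparison. Those 4, *Fgf11*, *Fgf12*, *Fgf13* and *Fgf14*, encode the intracellular FGF homologous factors, which are not secreted and are known as regulators of sodium channels. Only *Fgf12* had a mean of at least 10 CPM (20.2). It was at 38.1 ± 11.3 CPM in SAG and 6.37 ± 6.16 in DMSO (SD, n = 3 each) without overlap, with a log2 fold change of 2.60 (SE 1.43, edgeR adjusted p = 1). Of all genes tested, 14.2% had no overlap between SAG and DMSO. Among secreted ligands, *Fgf9* reached 19.8 CPM in 1 library and had reads in 4, and *Fgf18* had reads in 4.

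*Fgfr1* (ENSMUSG00000031565, chromosome 8, 25513654 to 25575718) was read in every library. DMSO replicates 1 to 3 held 177, 272 and 224 CPM and SAG replicates 213, 265 and 152. PBS replicates 1 to 4 held 196, 198, 103 and 136, and FGF2 replicates 217, 174, 175.4 and 119. FGF10 replicates 1 to 3 held 168, 148 and 83.2. All 3 FGF10 libraries lay below all 3 DMSO libraries, a pair of groups from different experiments that was not tested, and the groups of each comparison made here overlapped. The means ran from 224 ± 47.3 in DMSO through SAG, FGF2 and PBS to 133 ± 44.4 in FGF10 (SD, n = 3 each), with each step smaller than the larger SD of the groups beside it. In replicates 3 and 4 of PBS, *Fgfr1* was lower than in replicates 1 and 2. The log2 fold change was −0.07 (SE 0.26) for SAG against DMSO, 0.12 (SE 0.27) for FGF2 against PBS, −0.24 (SE 0.31) for FGF10 against PBS and −0.49 (SE 0.27) for PBS against DMSO, none of which passed edgeR's test (adjusted p = 1 in each).

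*Fgfr2* (ENSMUSG00000030849, chromosome 7, 130162451 to 133123350), the gene of the FGF10 receptor form, held 51.0, 48.7 and 47.5 CPM in DMSO replicates 1 to 3. SAG replicates 1 to 3 held 99.2, 65.1 and 3.13, the last from 98 counts. The PBS group held 44.3, 64.1, 55.4 and 51.3. FGF2 replicates 1 to 4 held 71.7, 66.3, 22.2 and 64.7, and FGF10 replicates 1 to 3 held 21.2, 50.6 and 45.5. A low library occurred in SAG, FGF2 and FGF10 (replicates 3, 3 and 1) and in neither vehicle group. Each is a single library of its group, picked out after the values were seen, so nothing about treatment is read from it. *Fgfr2* ranged 31.7-fold over the 17 libraries against 3.27-fold for *Fgfr1* and 4.37-fold for *Fgfr3*.

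No difference of *Fgfr2* exceeded this spread. The log2 fold change of SAG against DMSO was 0.20 (SE 0.80), that of FGF2 against PBS 0.08 (SE 0.37), that of FGF10 against PBS −0.45 (SE 0.39) and that of FGF2 against FGF10 0.53 (SE 0.46), with adjusted p = 1 in edgeR's test each time. Without SAG replicate 1 the first of these was −0.49, and the sign therefore rests on single libraries. The annotated span of *Fgfr2* includes transcripts that share 314 exonic bases with *Ctbp2* on the same strand.

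*Fgfr3* (ENSMUSG00000054252, chromosome 5, 33721674 to 33737068) was at 134, 140 and 83.4 CPM in DMSO replicates 1 to 3 and at 105, 78.4 and 60.6 in SAG. The PBS group stood at 35.2, 62.0, 60.1 and 48.5. FGF2 replicates 1 to 4 were at 97.7, 154, 36.0 and 45.0, and FGF10 replicates 1 to 3 were at 66.6, 76.4 and 74.8. Every PBS library lay below every DMSO library and below every FGF10 library, whereas 2 FGF2 libraries lay above all PBS libraries and 2 within their range.

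For FGF10 against PBS the difference in *Fgfr3* was 72.6 ± 5.28 (n = 3) against 51.5 ± 12.4 CPM (SD, n = 4), a log2 fold change of 0.50 (SE 0.31). The exact two-sided permutation test gave p = 0.0571, the smallest possible, and edgeR's test an unadjusted p of 0.133 and an adjusted p of 1. This was the only one of 7 members tested whose libraries did not overlap between the groups (14.3%), where 4.79% of all 13309 genes tested did not overlap. The number of genes that edgeR called in this comparison was 0 of 13309 (percent called 0), with 305 at an unadjusted p under 0.05, and DESeq2's Wald test called 104 of 15610 (0.666%), no member among them. That test gave no adjusted p for *Fgf1* and *Fgf10*, so neither could be called by it.

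For FGF2 against PBS the log2 fold change of *Fgfr3* was 0.70 (SE 0.42, edgeR adjusted p = 1). The direction was not the same in all replicates. FGF2 replicates 1 and 2 (97.7 and 154 CPM) lay above PBS replicates 1 and 2 (35.2 and 62.0), a log2 fold change of 1.38 (SE 0.40). FGF2 replicates 3 and 4 (36.0 and 45.0) lay below PBS replicates 3 and 4 (60.1 and 48.5), a log2 fold change of −0.42 (SE 0.43). Fitted as an interaction, a test added after these values were seen, the FGF2 difference was lower by 1.80 on the log2 scale in replicates 3 and 4 (SE 0.58, unadjusted p = 0.00915, adjusted p = 0.997 over 12744 genes, of which 604 had an unadjusted p under 0.05), so a dependence on the set of replicates was not shown after adjustment. Both FGF10 replicates 1 and 2 also lay above PBS replicates 1 and 2, and FGF10 replicate 3 lay above PBS replicates 3 and 4. *Fgfr3* shares 998 exonic bases with G630022F23Rik on the opposite strand.

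**Figure D3:**
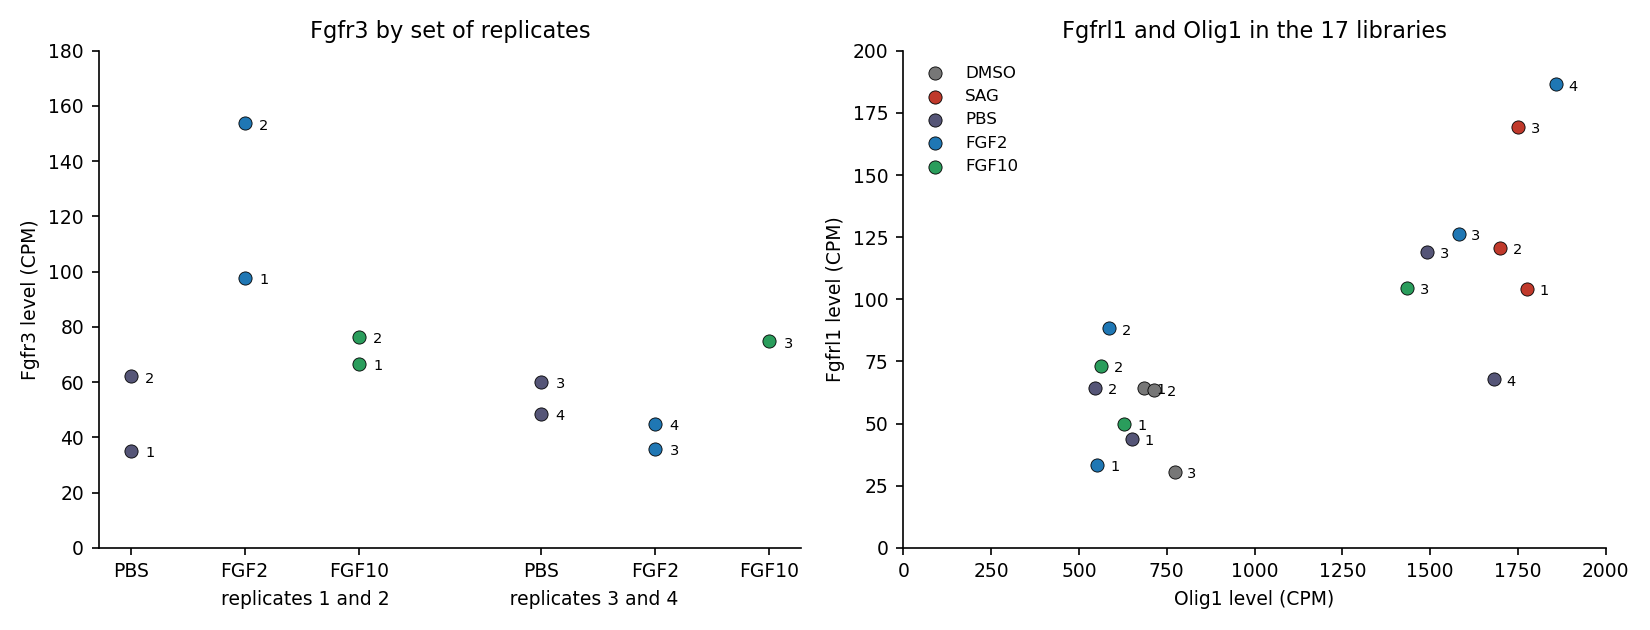
Left, *Fgfr3* level (CPM) in PBS, FGF2 and FGF10 libraries, with replicates 1 and 2 apart from replicates 3 and 4 (FGF10 has no replicate 4). Right, *Fgfrl1* against *Olig1* level (CPM) in the 17 libraries colored by group; small numbers are replicate numbers. FGF2 lies above PBS in replicates 1 and 2 and below it in replicates 3 and 4 for *Fgfr3*, and the 8 libraries with *Olig1* at 1440 to 1860 CPM hold *Fgfrl1* at 67.7 to 186 CPM.

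Between the vehicle groups, *Fgfr3* was at 51.5 ± 12.4 CPM in PBS (n = 4) and 119 ± 31.0 in DMSO (SD, n = 3), a log2 fold change of −1.20 (SE 0.31). edgeR gave an unadjusted p of 0.00166 and an adjusted p of 0.978, whereas DESeq2's Wald test called it (adjusted p = 0.00937). The exact permutation test gave p = 0.0571, the smallest possible. Among the 6 members tested, *Fgfr3* alone had no overlap (16.7%), where 6.44% of 13271 genes had none. edgeR called 0 genes here (percent called 0; 580 at an unadjusted p under 0.05) and DESeq2 called 193 of 14884 (1.3%). The vehicle, the start and length of treatment and the experiment all differ between these groups and cannot be told apart. In SAG, *Fgfr3* (81.2 ± 22.3) overlapped with DMSO, with a log2 fold change of −0.53 (SE 0.31, adjusted p = 1).

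*Fgfr4* (ENSMUSG00000005320, chromosome 13, 55152640 to 55168759), a receptor known mainly from liver and muscle lineages, had 21 counts (0.509 CPM) in FGF2 replicate 4 and was at 0 in the other 16 libraries. It passed no filter and was not tested. A count of 0 in a library allows up to 3 counts, counting error only.

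To compare the receptors with one another in each culture, the counts of *Fgfr1* to *Fgfr4* were summed (6603 to 27409 per library) and each was taken as a share. *Fgfr1* made up the largest share in all 17 libraries, from 40.9% to 75.1%. Group means for *Fgfr1* ran from 53.5% ± 12.4 in FGF10 to 62.2% ± 9.98 in SAG (SD, n = 3 each), for *Fgfr3* they reached 30.3% ± 6.70 in DMSO (n = 3), the 4 PBS libraries lying at 12.8% to 27.6%, and for *Fgfr2* from 12.7% ± 1.86 in DMSO (n = 3) to 20.8% ± 3.88 in PBS (n = 4). *Fgfr2* had 1.45% in SAG replicate 3 and 28.3% in FGF2 replicate 4. Of 15 exact two-sided permutation tests, 3 receptors in 5 comparisons, the smallest p was 0.0571, for the *Fgfr2* share in PBS above that in DMSO by 8.07 percentage points (Benjamini-Hochberg adjusted p = 0.571), and the smallest p that 4 against 3 libraries allow is 0.0571. The *Fgfr3* share was 10.2 points higher in FGF10 than in PBS and 10.3 points lower in PBS than in DMSO (p = 0.114 each, exact permutation, adjusted p = 0.571). It was 6.16 points lower in SAG than in DMSO (exact permutation p = 0.3, adjusted p = 0.857).

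**Figure D4:**
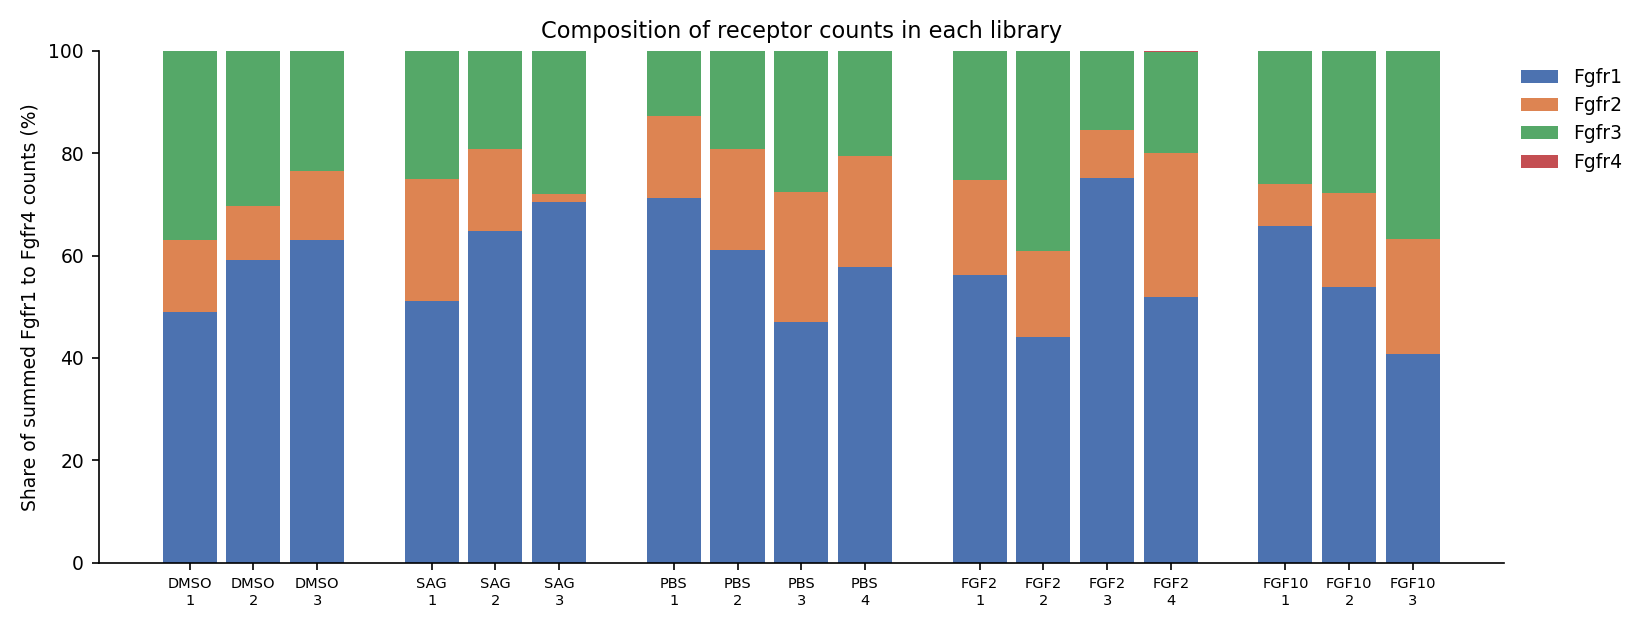
Share (%) of *Fgfr1*, *Fgfr2*, *Fgfr3* and *Fgfr4* in their summed counts, 1 bar per library, grouped by treatment with the replicate number below each bar. *Fgfr1* takes 40.9% to 75.1%, and *Fgfr2* drops to 1.45% in SAG replicate 3.

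*Fgfrl1* (ENSMUSG00000008090, chromosome 5, 108692382 to 108706924), the receptor without a kinase domain, had the largest difference of a member with reads in every library. SAG replicates 1 to 3 held 104, 121 and 169 CPM, and DMSO replicates held 64.4, 63.7 and 30.5. All 3 SAG libraries lay above all 3 DMSO libraries, with means of 131 ± 33.9 and 52.9 ± 19.3 CPM (SD, n = 3 each). The log2 fold change was 1.34 (SE 0.36). edgeR's test gave an unadjusted p of 0.00296 and an adjusted p of 0.425, which did not pass, and the exact permutation test gave p = 0.1, the smallest that 3 against 3 libraries allow. DESeq2's Wald test called it (adjusted p = 0.00505), as did edgeR without a filter on low counts (adjusted p = 0.0371).

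These calls stand beside others in the same comparison. edgeR called 8 of 12538 genes (0.0638%) and no member, with 714 genes at an unadjusted p under 0.05. DESeq2 called 398 of 13210 (3.01%), *Fgfrl1* alone among the members (*Fgf10* had no adjusted p), and edgeR without a filter called 76 of 18636 (0.408%). *Fgfrl1* was 1 of 7 members tested without overlap between SAG and DMSO (14.3%), and 14.2% of all genes tested had none, so the members' share was that of genes in general.

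The level of *Fgfrl1* also followed a division among the libraries that the treatments of the second experiment do not define. PBS replicates 1 to 4 held 43.8, 64.4, 119 and 67.7 CPM, FGF2 replicates 33.4, 88.3, 126 and 186, and FGF10 replicates 49.8, 73.2 and 105. In PBS and in FGF2, replicates 3 and 4 lay above replicates 1 and 2. In FGF10, which has no replicate 4, replicate 3 alone lay above replicates 1 and 2. *Olig1*, a transcription factor gene of the oligodendrocyte lineage, was at 546 to 773 CPM in DMSO and in replicates 1 and 2 of the second experiment (9 libraries) and at 1440 to 1860 CPM in SAG and in replicates 3 and 4 (8 libraries). *Gfap*, the astrocyte intermediate filament gene, is 1 of the 10 astrocyte markers summed above and does not stand for that list. It was at 139 to 403 CPM in the former 9 libraries and at 10.8 to 87.9 CPM in the latter 8. *Fgfrl1* had a median of 63.7 (range 30.5 to 88.3) in the former libraries and 120 (range 67.7 to 186) in the latter. These ranges overlap. The DMSO libraries are among the former and the SAG libraries among the latter, so part of this contrast is the SAG difference itself. This division was seen after the values were known, and its part in the SAG result was not tested. *Fgfrl1* against PBS had a log2 fold change of 0.57 (SE 0.45) with FGF2 and 0.05 (SE 0.38) with FGF10, adjusted p = 1 in edgeR's test for both.

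*Frs2* (ENSMUSG00000020170, chromosome 10, 117069427 to 117148534), the adaptor gene, was low and variable. DMSO replicates 1 to 3 held 12.4, 13.3 and 31.7 CPM, and SAG replicates held 13.2, 1.65 and 12.2. In PBS it held 12.8, 27.4, 4.88 and 16.2. FGF2 replicates held 13.6, 9.92, 11.04 and 8.10, and FGF10 replicates 6.08, 22.5 and 15.1. All groups overlapped. The log2 fold change was −1.05 (SE 1.18) for SAG against DMSO, −0.52 (SE 0.82) for FGF2 against PBS and −0.07 (SE 0.90) for FGF10 against PBS (edgeR, adjusted p = 1 in each). Its relative *Frs3* had a mean of 2.45 CPM over the libraries.

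Over the 5 groups together, edgeR's F test of any difference between groups called 6 of 15458 genes (0.0388%) and no member. The smallest p among the 7 members tested were 0.0506 for *Fgfrl1* (adjusted p = 0.817) and 0.0615 for *Fgfr3* (adjusted p = 0.848). Of the 4 steps between neighboring group means of each gene, the step from FGF10 to PBS in *Fgfr3* was the only one larger than the larger SD of the pair.

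**Figure D5:**
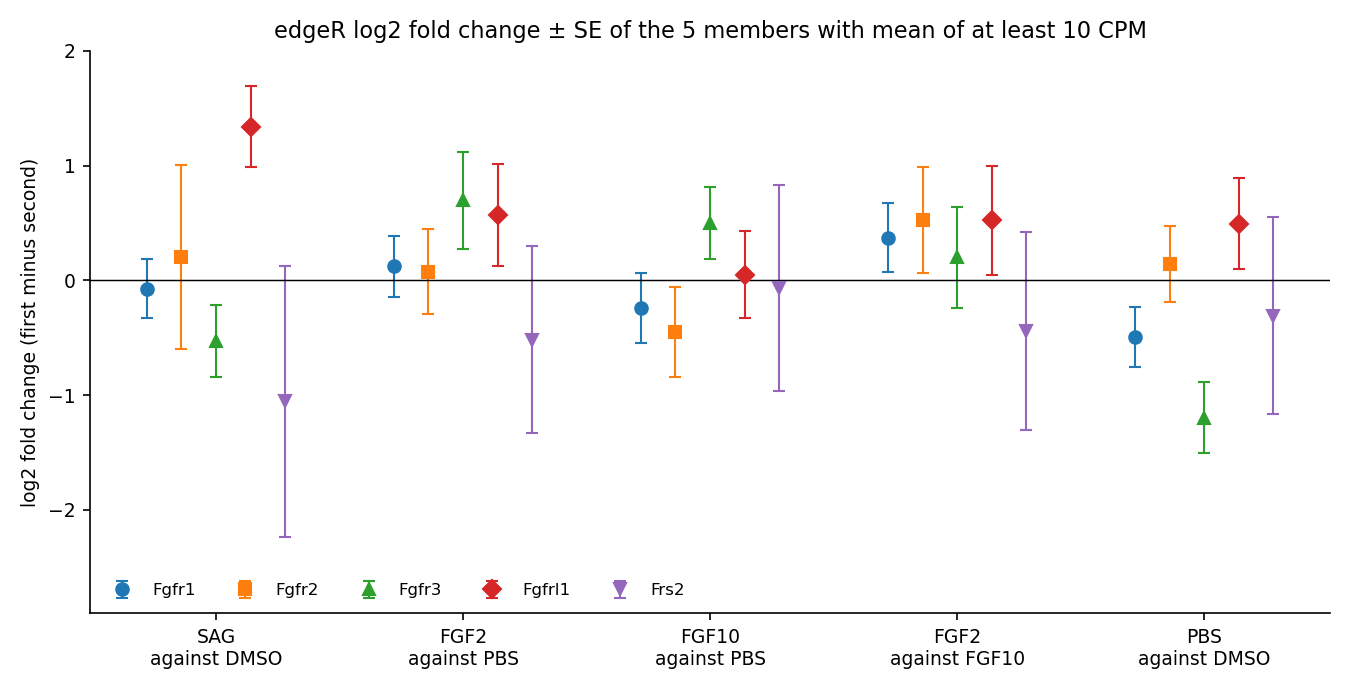
edgeR log2 fold changes (vertical axis, first group minus second) with their SE for *Fgfr1*, *Fgfr2*, *Fgfr3*, *Fgfrl1* and *Frs2* in the 5 comparisons (horizontal axis). *Fgfrl1* in SAG against DMSO (1.34) and *Fgfr3* in PBS against DMSO (−1.20) lie farthest from 0 relative to their error.

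FGF2 and FGF10 were then compared directly. edgeR called 0 of 13493 genes (percent called 0; 324 at an unadjusted p under 0.05) and DESeq2 called 90 of 16585 (0.543%), with no member in either. DESeq2 gave no adjusted p for *Fgf2* and *Fgf10* here, so neither could be called by it. The log2 fold changes of FGF2 against FGF10 were 0.37 for *Fgfr1* (SE 0.30), 0.53 for *Fgfr2* (SE 0.46), 0.20 for *Fgfr3* (SE 0.44), 0.52 for *Fgfrl1* (SE 0.47), −0.44 for *Frs2* (SE 0.86) and 0.23 for *Fgf1* (SE 1.42). A range of 2 SE on either side reached from −0.40 to 1.45 for *Fgfr2* and from −0.69 to 1.09 for *Fgfr3*, so log2 differences of 1 in either gene were within the error. *Fgf2* alone of 7 members tested did not overlap, against 4.9% of all genes, and it passed the filter only through the FGF10 libraries, so nothing is read from that count.

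For FGF2 against PBS, edgeR called 0 of 12744 genes (percent called 0; 223 at an unadjusted p under 0.05) and no member was without overlap, where 2.45% of all genes were. DESeq2 called 120 of 14910 genes (0.805%). *Fgf2* was the one member among them (adjusted p = 9.31e-10). It was at 0 in all 4 FGF2 and in 2 of 4 PBS libraries, and the exact permutation test of CPM gave p = 0.429. *Fgf2* did not pass edgeR's filter here and was not tested by it. The DESeq2 log2 fold change of −23.87 comes from a group with every library at 0 and does not measure a size.

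Other genes of the pathway were counted from fixed lists of 87 genes, of which 63 to 66 were tested in each comparison. The 87 include 2 genes listed only for their overlap with a member, *Nudt6* and *Fgf10os*, which are not pathway genes. Of these, *Nudt6* was tested in each comparison. edgeR called none of them in any of the 5 comparisons, and the number with an unadjusted p under 0.05 was 3 for SAG, 1 for FGF2 and 2 for FGF10, each against its vehicle, 0 between FGF2 and FGF10 and 1 between the vehicles. Among 31 genes for co-receptors and heparan sulfate, the cofactor of FGF binding, the Klotho genes *Kl* (0.222 CPM) and *Klb* (0.619), which endocrine FGFs need, were barely read, whereas the adhesion molecule gene *Ncam1* (765), the sulfotransferase gene *Ndst1* (225) and the syndecan gene *Sdc3* (176) were high. With SAG, the highest log2 fold change among genes of the list with a mean of at least 10 CPM was that of *Gpc1*, a cell-surface heparan sulfate proteoglycan, at 93.1 ± 40.8 CPM in SAG and 44.7 ± 7.60 in DMSO (SD, n = 3 each), with a log2 fold change of 1.08 (SE 0.38, edgeR adjusted p = 0.626). Among genes with a mean of at least 10 CPM, *Gpc4* was lowest, with a log2 fold change of −1.15 in SAG (SE 0.99, adjusted p = 1), and was lowest of its list with FGF2 also, at −1.17 (SE 0.69, adjusted p = 1).

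All 11 genes next to the receptor were tested in each comparison and none was called. With FGF2, the exchange factor gene *Sos2* had the largest difference, 39.2 ± 17.2 against 20.8 ± 10.5 CPM in PBS (SD over 4 libraries each; log2 fold change 0.92, SE 0.50, edgeR adjusted p = 1). Of the 11 genes of the RAS-ERK cascade, the kinase gene *Araf* had the lowest log2 fold change with SAG, FGF2 and FGF10, each against its vehicle. It was at 51.8 ± 13.7 CPM in SAG and 107 ± 31.4 in DMSO (SD, n = 3 each), without overlap (log2 fold change −1.03, SE 0.34, edgeR adjusted p = 0.564), and at 51.1 ± 9.07 in FGF10 (n = 3) and 99.2 ± 24.0 in PBS (n = 4), without overlap (log2 fold change −0.95, SE 0.31, edgeR adjusted p = 1). With FGF2 it was at 61.9 ± 19.9 (SD, n = 4), overlapping with PBS. The comparisons with FGF2 and FGF10 share the PBS libraries. *Araf* was picked as the lowest of its list, and 14.2% of all genes tested had no overlap between SAG and DMSO and 4.79% between FGF10 and PBS.

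The feedback and ETV list mixes regulators of the pathway at several levels with its target genes, so it is not a measure of ERK output alone. Of its 12 genes in the table, 9 were higher and 3 lower with FGF2 than with PBS, with a median log2 fold change of 0.25. With FGF10, 3 were higher and 9 lower than with PBS, with a median of −0.19. Both counts use the same 4 PBS libraries. In SAG against DMSO, where no FGF was added, 8 were higher and 4 lower, with a median of 0.75. None was called in these comparisons. Over all genes tested the medians were 0.0011 for FGF2, −0.0016 for FGF10 and −0.020 for SAG, with 50.1%, 49.9% and 48.9% of genes higher. A response of this list to FGF2 is therefore not read from the counts. *Spry4*, an inhibitor of the pathway induced by it, was at 35.4 ± 36.3 CPM with FGF2, 10.3 ± 11.5 with PBS (SD, n = 4 each) and 5.28 ± 1.25 with FGF10 (n = 3), with a log2 fold change of 1.78 (SE 1.38) for FGF2 against PBS and 2.76 (SE 1.48) for FGF2 against FGF10 (edgeR adjusted p = 1 for both). Among genes of the list with a mean of at least 10 CPM, *Spry1* was lowest with FGF10, at 9.37 ± 8.12 CPM (n = 3) against 24.8 ± 16.9 in PBS (SD, n = 4; log2 fold change −1.40, SE 1.34, edgeR adjusted p = 1). *Etv4* was highest, at 48.2 ± 36.7 (n = 3) against 23.0 ± 15.8 CPM (SD, n = 4), a log2 fold change of 1.07 (SE 0.68, adjusted p = 1). With SAG, *Spry1* was at 48.2 ± 33.8 and with DMSO at 20.2 ± 1.75 CPM (SD, n = 3 each) without overlap, as were 14.2% of all genes tested, and its log2 fold change was 1.28 (SE 0.61, edgeR adjusted p = 0.913).

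For each member with a mean of at least 10 CPM, the genes whose levels ranked the 17 libraries most alike were sought among 7814 genes. Spearman's rho with *Fgfr1* was highest for *Hira* (0.841), *Mafg* (0.821) and *Malat1* (0.809), and Pearson's r of these on log2 CPM was 0.623, 0.754 and 0.822. For *Fgfr2* the genes were *Klc1* (rho 0.863, r 0.773), *Atp5l* (rho 0.752, r 0.804) and *Tm9sf3* (rho 0.745, r 0.504). For *Fgfr3* they were *Mysm1* (rho 0.811, r 0.707), *Hnrnpr* (rho 0.809, r 0.719) and 2210016L21Rik (rho 0.775, r 0.687). None of the lists shared a gene. For *Fgfrl1* they were *Nsdhl*, an enzyme of cholesterol synthesis (rho 0.863, r 0.805), *Snhg6* (rho 0.858, r 0.831) and *Mtss2* (rho 0.836, r 0.777). For *Frs2* they were *Cdip1* (rho 0.816, r 0.861), *Ttc9* (rho 0.789, r 0.776) and *Pold3* (rho 0.745, r 0.590). The libraries share groups, replicate sets and depth, the genes were picked as the highest of 7814, and these values describe the libraries only. Without the 2 libraries farthest from the median of the member, r of the 15 pairs ran from 0.453 to 0.849. It fell to 0.546 for *Atp5l* with *Fgfr2* and to 0.453 for *Ttc9* with *Frs2*, which therefore rested in part on those libraries.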

How the data were processed

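Per the labels and methods, the authors purified RNA from immunopanned astrocytes, made 3′-end libraries (QuantSeq FWD, with BC1 RNA removed), aligned reads with STAR and counted them per gene. What was deposited is the raw number of reads assigned to each gene (counts, not normalized), so PCR copies count as reads. The submitters' processing notes name GRCm38; annotation and strand setting are not given in the sources used here. Of 56805 rows, 114 spike-in rows were left out. The counts passed edgeR 4.0.16 (R 4.3.3) filterByExpr (minimum count 10, minimum total 15), TMM and the quasi-likelihood test on the libraries of each comparison, with Benjamini-Hochberg adjustment over all genes tested and a call at an adjusted p under 0.05. The test was checked on simulated counts. Within groups, edgeR's common coefficient of variation between libraries, beyond counting error, was 107% to 117% in the 5 comparisons. With such spread, a count of 0 calls does not show that levels were equal. DESeq2 1.42.0, which the study used, was an alternative. Exact permutation tests were two-sided (scipy 1.17.1). The 9 genes and all lists were chosen with earlier results of these data known. The named genes were all 9 members, list genes past the threshold or the highest and lowest log2 fold change per list among genes with a mean of at least 10 CPM, overlapping genes, and the 3 genes most alike in rank (prior count 2); others named were chosen after their values were seen. The methods give 3 FGF2 replicates and the labels 4, and all 4 were used. Coordinates and exon sequences are from GENCODE vM21 on GRCm38. No pair of libraries within a group was a repeat (chi-square per degree of freedom 149 to 524 over 21 pairs). Same-numbered libraries deviated together with correlations of 0.036 to 0.115 among PBS, FGF2 and FGF10 and of −0.016 to 0.012 in the comparisons with DMSO. Alternatives were other scaling, filters, all groups in one fit, the replicate number as a block, sets of replicates (their interaction with FGF2 was added after the data were seen), the study's threshold (adjusted p under 0.01 and absolute log2 fold change over 1) and each library left out in turn.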

Additional observations from a re-analysis of the deposited data

Results flagged for a closer look

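In groups of 4 libraries, 14 sets of values were examined for a library far from the other 3. The cutoff sets apart about 1 in 20 by chance for normally distributed values, a rate that does not hold for sets mostly at 0. *Fgfr2* in FGF2 replicate 3 (22.2 CPM) lay apart below the other FGF2 libraries. *Fgf1* in PBS replicate 4 (11.4 CPM) and *Fgfr4* in FGF2 replicate 4 (0.509 CPM) lay apart above libraries at or near 0. In such sets any single library with reads is set apart, so nothing is read from these flags. The FGF2 difference of *Fgfr3* against PBS was opposite in the sets of replicates, upward in replicates 1 and 2 and downward in replicates 3 and 4, and differed between them by −1.80 on the log2 scale (edgeR interaction term, adjusted p = 0.997).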

How the results depend on the processing

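No member was called in any of the 5 comparisons by edgeR, with DESeq2's size factors, a filter on a mean of 10 counts, all 5 groups in one fit, the replicate block, the threshold of the study or any library left out (0 to 0 calls), nor with sets of replicates in the 3 comparisons among PBS, FGF2 and FGF10. The number called became 1 for SAG against DMSO without a filter and by DESeq2 (*Fgfrl1*), 1 for FGF2 against PBS by DESeq2 (*Fgf2*) and 1 for PBS against DMSO by DESeq2 (*Fgfr3*). The DESeq2 calls also passed the study's threshold (adjusted p = 0.00505, 9.31e-10 and 0.00937). That of *Fgf2* rests on a group at 0 in every library and on a gene that edgeR's filter left out, so nothing is read from it. The cause of the difference between the 2 methods was not tested. Neither other scaling changed the count of 0 members in the F test over 5 groups, and no library left out changed the count of 0 receptor shares past the threshold. The log2 fold change changed sign with the replicate block for *Fgfr2* in SAG against DMSO (−0.55) and FGF2 against PBS (−0.037), *Frs2* in FGF10 against PBS (0.073) and *Fgfrl1* in FGF2 against FGF10 (−0.0026). It changed sign within replicates 1 and 2 for *Fgfr1* in FGF2 against PBS (−0.00077) and *Fgfrl1* in FGF2 against FGF10 (−0.012), and within replicates 3 and 4 for *Fgfr2* (−0.29) and *Fgfr3* (−0.42) in FGF2 against PBS. The replicate numbers do not pair the cultures by the labels. Correlations of same-numbered libraries were small, 0.036 to 0.115 among PBS, FGF2 and FGF10 and −0.016 to 0.012 in the comparisons with DMSO. In PBS, FGF2 and FGF10, *Olig1* and *Gfap* nonetheless differed without overlap between replicates 1 and 2 and the later replicates, so the numbers carry some shared structure there. With 1 library left out, log2 fold changes that changed sign ran, for SAG against DMSO, from −0.27 to 0.11 (*Fgfr1*), −0.49 to 0.76 (*Fgfr2*), −0.78 to 10.14 (*Fgf1*) and −0.16 to 7.22 (*Fgf2*). For FGF2 against PBS they ran from −0.037 to 0.26 (*Fgfr1*) and −0.066 to 0.33 (*Fgfr2*). For FGF10 against PBS they ran from −0.26 to 0.37 (*Fgfrl1*), −0.54 to 0.36 (*Frs2*), −1.33 to 7.24 (*Fgf1*) and −1.47 to 3.00 (*Fgf2*). For FGF2 against FGF10 they ran from −0.28 to 0.45 (*Fgfr3*), −0.81 to 0.011 (*Frs2*) and −0.41 to 2.96 (*Fgf1*), and for PBS against DMSO from −0.74 to 0.26 (*Frs2*). *Fgfrl1* in SAG against DMSO (1.06 to 1.5), *Fgfr3* in PBS against DMSO (−1.41 to −1.05) and *Fgfr3* in FGF10 against PBS (0.34 to 0.60) kept their sign with each library left out. The 90 group levels recomputed under 2 other scalings moved by less than 1 SD, apart from levels with every library at 0, which no scaling can move. *Fgf1* and *Fgf2* had up to 877 and 519 counts in single libraries beside others at 0, so their error is set by the spread between libraries. *Fgf10* and *Fgfr4* had at most 60 and 21 counts.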

Other observations

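The spread of the members over the 17 libraries was set beside that of genes within 2-fold of the same mean CPM. The coefficient of variation of *Fgfrl1* was 50.7%, above 95.0% of 2977 such genes, whose median was 32.4%. That of *Fgfr3* was 44.7%, above 85.2% of 3253 genes, and that of *Fgfr1* was 29.4%, above 66.9% of 1473 genes. *Fgfr2*, at 42.7%, stood above 59.5% of 4222 genes, and *Frs2*, at 56.0%, above 25.3% of 4644 genes. The spread of *Frs2* was therefore smaller than that of most genes at its level.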
